A study of Mus musculus with 2 samples.

Results

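The genes described here encode tumour necrosis factor (TNF), its receptors and the adaptor proteins that those receptors recruit. They were chosen by name, as every non-control probe on both arrays whose gene name was Tnf, Tnfrsf1a, Tnfrsf1b, Cd40, Traf1, Traf2, Traf3, Traf5, Birc2 or Birc3. All 10 genes were on the array, with 12 probes among 41174 non-control probes, and all 12 were well above background on both arrays. They belong to 16023 genes measured on both arrays. The series compared 1 culture of RAW 264.7 cells, a virus-transformed mouse macrophage line that can form osteoclast-like cells, grown in a rotary cell culture system (RCCS) that models microgravity, with 1 control culture of the same line kept at ground level. The medium was DMEM with serum. RCCS cells were in the system for 24 h and received the osteoclast-inducing cytokine RANKL at 80 ng/ml for 24 h. The protocol text is shared by both samples and does not settle whether the control cells also received RANKL. Each condition had 1 one-colour Agilent array, so no test between conditions was possible and none of the differences has a replicate check.

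TNF is a cytokine that macrophages make as a membrane protein and shed after cleavage. It binds TNF receptor 1 (Tnfrsf1a), which most cells carry and which can start inflammatory or death signalling, and TNF receptor 2 (Tnfrsf1b), which is found mainly on blood and vessel cells and lacks a death domain. Receptors of this family, CD40 included, carry no enzyme of their own and signal through TRAF adaptors and the cIAP ubiquitin ligases, which activate the transcription factor NF-kappaB. In resting cells TRAF2, TRAF3 and the cIAPs together keep the kinase NIK (Map3k14) low and so hold back the branch of NF-kappaB that runs through Nfkb2 and Relb. TNF is known to add to RANKL-driven osteoclast formation.

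The 10 genes lay on both sides of the bulk of the array. On the RCCS array Tnfrsf1b was at least 2-fold higher, and Cd40, Traf1 and Birc3 were at least 2-fold lower, so 1 of 10 genes passed 2-fold upward and 3 downward. Over all 16023 genes measured on both arrays, 3.88% were at least 2-fold higher, 3.76% at least 2-fold lower and 7.65% either. By probes, 1 of 12 passed 2-fold upward and 4 downward, against 4.15% and 4.11% of all measured probes (8.25% either). At 1.5-fold 2 genes were higher and 4 lower, against 9.74% and 14.8% of all genes (24.6% either). At 3-fold 0 were higher and 2, Cd40 and Traf1, were lower, against 1.28% and 0.961% of all genes (2.24% either). Tnf was 1.98-fold higher, just under the 2-fold limit. The other 5 genes, Tnfrsf1a, Traf2, Traf3, Traf5 and Birc2, lay between 1.53-fold lower and 1.38-fold higher. The median log2 ratio of the 10 genes was 0.12, against -0.13 for all measured genes, of which 9897 of 16023 were below 0 at this scaling. Ratios are log2 of the scaled signal, RCCS minus control, after each array was divided by its own 75th percentile of signal. Signals given per array are the processed intensities before that scaling. The scanner software gives an error for each spot, and those of the 2 arrays were combined into an error of each member's log2 ratio. It gives a 95% half-width of 0.40 to 0.43 and is not reduced for probes printed several times. This half-width covers the spot and not the culture, the RNA extraction or the labelling.

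**Figure D1:**
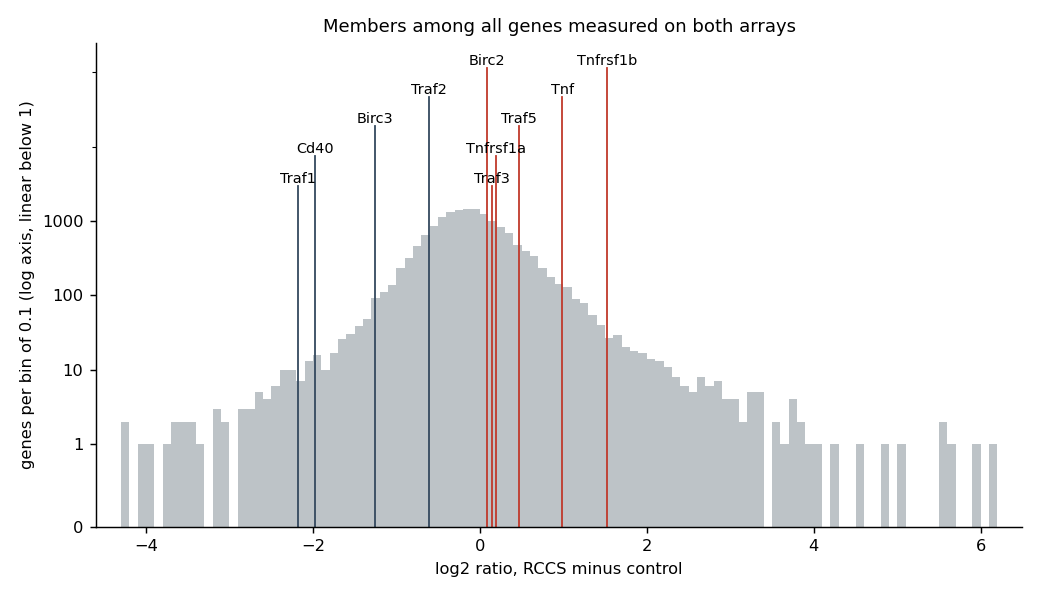
Number of genes per bin of log2 ratio (RCCS minus control, bins of 0.1, log axis) for all 16023 genes measured on both arrays, with a line at each of the 10 members (red above 0, dark blue below 0). Traf1, Cd40 and Birc3 lie in the lower tail, Tnf and Tnfrsf1b in the upper tail, and the other 5 near the bulk.

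The cells carried the markers of a macrophage line. All 9 macrophage markers examined were measured on both arrays, with a summed signal of 778966 on the RCCS array, against 632634 on the control array. Among them Fcgr3 was highest, with a log2 ratio of 2.44, and Spi1 lowest, with -0.72, while Csf1r was at 0.05 and Lyz2 at 0.08. Itgam had a signal of 5153 on the RCCS array, against 1135 on the control array. Of the markers of other cell types with a probe, 1 of 4 for neutrophils, 3 of 4 for T cells, 2 of 4 for B cells, 1 of 4 for fibroblasts, 2 of 4 for endothelium and 1 of 4 for epithelium were measured on both arrays. Their summed signals were between 69.6 and 729 per cell type on the RCCS array, against 102 to 881 on the control array. The defining genes S100a9 and Elane, Cd3d, Cd79b and Ms4a1, Pdgfra, Cdh5 and Kdr, and Krt19 and Cdh1 failed the background test on both arrays. The fibroblast marker Dcn passed the background test only on the RCCS array (signal 462, against 15.2 on the control array, at least 16.8-fold higher), and Epcam had a log2 ratio of -1.54 at signals of 27.2 on the RCCS array, against 69.6 on the control array. The part of other cells in the results was not tested, and in bulk RNA fewer cells of a type and less RNA per cell cannot be told apart. Of all probes, 60.6% passed the background test on the RCCS array, against 57.5% on the control array.

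The promoters of the 4 members that showed the main differences and had an entry in the RefSeq-derived promoter table of assembly GRCm38.p6 are given 5′ to 3′, cut at the outermost annotated end of the gene so that they hold none of its own annotated transcript. The table matched 9 of 10 members by symbol (Cd40 is named only). Capitals mark a match, on either strand, to GGGNNTTCC (an NF-kappaB form), TTCNNTTTC (an interferon response element form) or TGANTCA (an AP-1 form). These 4 are shown because Tnf and Tnfrsf1b were higher and Traf1 and Birc3 lower on the RCCS array.
Tnf (chr17:35202008-35202257, minus strand): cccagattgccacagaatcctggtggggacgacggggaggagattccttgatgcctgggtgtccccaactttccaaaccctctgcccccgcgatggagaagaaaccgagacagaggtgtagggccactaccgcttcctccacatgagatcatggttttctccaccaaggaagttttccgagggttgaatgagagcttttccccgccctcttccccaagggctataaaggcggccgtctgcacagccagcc
Tnfrsf1b (chr4:145246871-145247120, minus strand): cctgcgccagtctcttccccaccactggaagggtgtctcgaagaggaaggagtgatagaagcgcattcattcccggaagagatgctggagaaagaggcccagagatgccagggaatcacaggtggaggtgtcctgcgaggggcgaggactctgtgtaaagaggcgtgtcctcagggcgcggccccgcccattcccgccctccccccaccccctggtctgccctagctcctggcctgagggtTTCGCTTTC
Traf1 (chr2:34961813-34962022, minus strand): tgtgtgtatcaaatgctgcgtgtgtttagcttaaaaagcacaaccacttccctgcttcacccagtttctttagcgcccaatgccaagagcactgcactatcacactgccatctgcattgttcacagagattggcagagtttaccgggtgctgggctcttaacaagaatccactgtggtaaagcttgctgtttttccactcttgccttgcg
Birc3 (chr9:7873206-7873420, minus strand): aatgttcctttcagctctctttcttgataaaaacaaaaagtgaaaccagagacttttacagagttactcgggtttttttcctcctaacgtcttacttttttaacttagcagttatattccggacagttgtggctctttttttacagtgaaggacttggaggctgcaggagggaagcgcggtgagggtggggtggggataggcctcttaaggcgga

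Over the whole window of 250 bases before to 50 after the start, Birc2 and Traf3 held the NF-kappaB form, 2 of 9 members, as did 5.82% of all 32851 promoter entries. Tnfrsf1b and Traf5 held the interferon response element form, 2 of 9, against 8.56% of entries. No member held the AP-1 form, which 7.81% of entries held. In the printed promoters the capitals are thus confined to Tnfrsf1b, where the match starts 9 bases before the start. The 3 motifs do not overlap each other in these windows. A match is a description of letters and not a bound site, and the absence of one says only that these letters are not in the window.

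Tnf, on chromosome 17, encodes the ligand. Its probe was printed 10 times, and the processed signal ran from 7025 to 7868 on the RCCS array (median 7758), against 3107 to 3539 on the control array (median 3430). Every RCCS spot was thus brighter than every control spot. After scaling, the log2 ratio was 0.99, and over the 10 spots it ran from 0.97 to 1.02 with an SD of 0.02. Tnf was higher than 96.0% of measured genes in this ratio. It passed 2-fold under 6 other scalings, with up to 1.29 on the spike-in probes. Spots of 1 array share 1 RNA sample, so their spread is that of the printing and scanning, here and for the other members printed 10 times. Among 117 probes printed several times and with signals of at least 100, the median SD of the log2 ratio was 0.04. The share of such probes whose spots do not overlap between the arrays was not counted.

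Tnfrsf1a, on chromosome 6, encodes TNF receptor 1. Its 9 usable spots of 10 had signals from 5777 to 6168 on the RCCS array (median 6002), against 4481 to 4785 on the control array (median 4624). After scaling the log2 ratio was 0.19 (SD over spots 0.02). This 1.14-fold difference lies within the half-width of 0.40 from the software error, which is not reduced for the 9 spots averaged.

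Tnfrsf1b, on chromosome 4, encodes TNF receptor 2 and had 2 probes that disagreed in size. On probe A_52_P228621, printed 10 times, 9 usable spots had signals from 3286 to 3556 on the RCCS array (median 3322), against 559 to 619 on the control array (median 578). That is a log2 ratio of 2.35 (SD over spots 0.04), or 5.10-fold higher. Probe A_51_P278282, printed once, had a signal of 1097 on the RCCS array, against 593 on the control array, a log2 ratio of 0.70 or 1.63-fold higher. Both probes were higher on the RCCS array, and their mean gave the gene a log2 ratio of 1.53 (2.88-fold), while the brighter probe alone gives 2.35.

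The gap between these probes was 1.65 on the log2 scale. Among 5091 genes with more than 1 measured probe the median gap was 0.30, and 48 genes (0.943%) had a gap as large or larger. By the positions the files give, A_51_P278282 spans 574 bases of genome although both probes name the same transcript, and 8502 bases separate it from the other probe. The other 11 probes each span 60 bases. Whether the 2 probes read different transcripts of the gene was not tested.

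Cd40, on chromosome 2, encodes the receptor through which T cells activate macrophages and B cells. It is induced by interferon gamma and by NF-kappaB in macrophages. Its 9 usable spots of 10 had signals from 556 to 590 on the RCCS array (median 583), against 1938 to 2038 on the control array (median 2007). The lowest control spot was more than 3 times as bright as the highest RCCS spot. The log2 ratio was -1.98 (SD over spots 0.04), or 3.95-fold lower, and 0.499% of measured genes were lower. The ligand gene Cd40lg failed the background test on both (signals 5.24 on the RCCS array, against 13.7 on the control array).

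**Figure D2:**
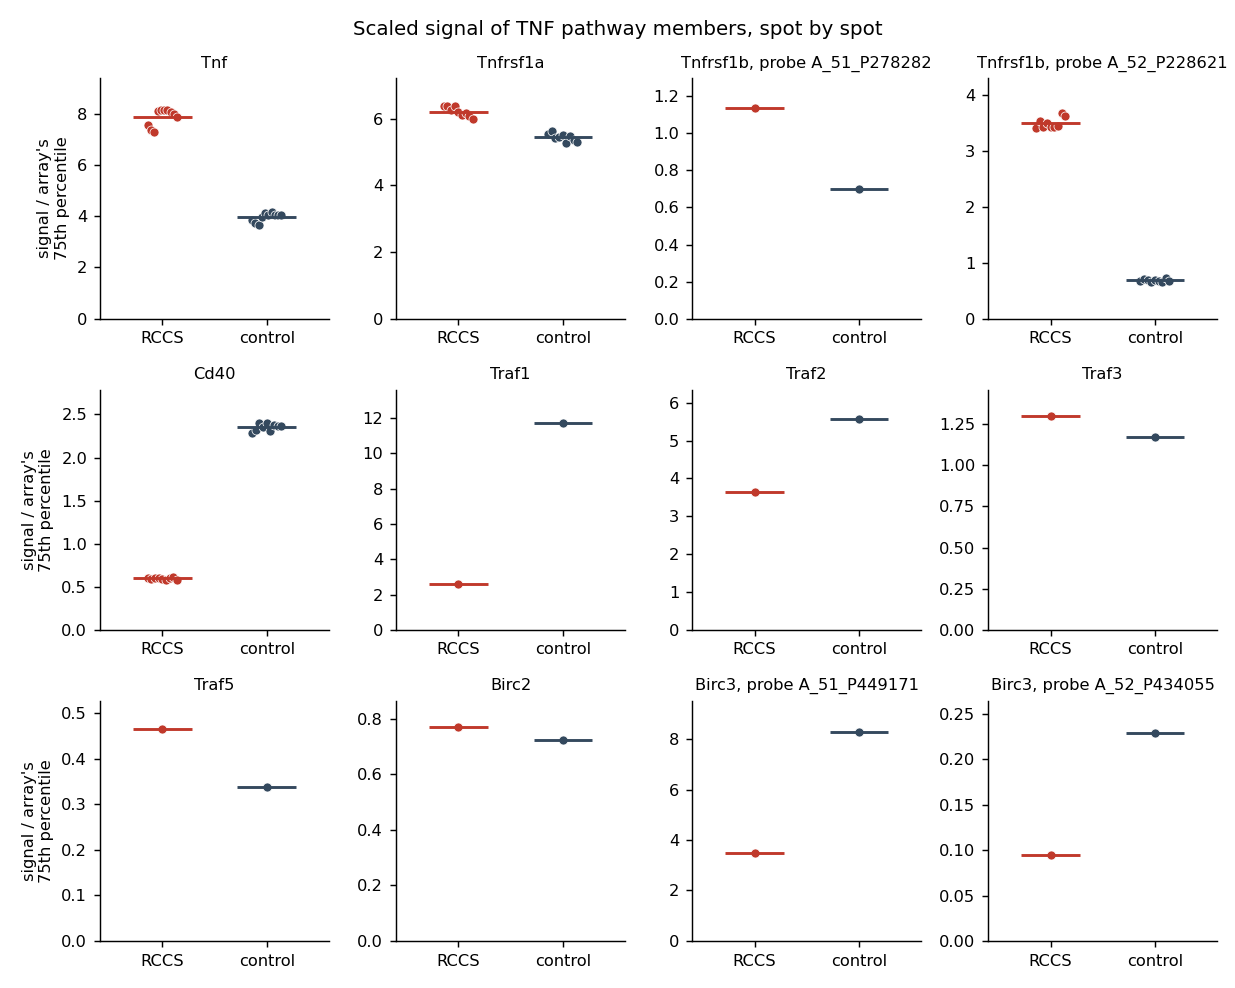
Signal of each spot (points) and their mean (bar) divided by the array's 75th percentile, for the 12 probes of the 10 members, with RCCS (red) left of control (dark blue) in each panel and the axis from 0. Probes printed 10 times show 9 or 10 spots, which do not overlap between the arrays for Tnf, Tnfrsf1a, Tnfrsf1b or Cd40. Spots of the same array share the same RNA sample, so their spread covers printing and scanning and not the cultures. The share of all probes printed several times whose spots do not overlap was not counted, so the lack of overlap does not set these members apart. Scales differ between panels and levels of different probes cannot be compared.

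The TRAF adaptors differed among themselves. Traf1, on chromosome 2, encodes the member that lacks the RING domain, pairs with TRAF2 and is itself induced by NF-kappaB. Its probe was printed once, as was each probe of Traf2, Traf3, Traf5, Birc2 and Birc3, so no spread over spots is known. It had a signal of 2504 on the RCCS array, against 9945 on the control array. The log2 ratio of -2.17 (4.52-fold lower) was the lowest of the 10 genes, and 0.362% of measured genes were lower.

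Traf2, also on chromosome 2, encodes the adaptor that brings the cIAPs to TNF receptors. It had signals of 3528 on the RCCS array, against 4734 on the control array, a log2 ratio of -0.61 (1.53-fold lower). Traf3, on chromosome 12, encodes the adaptor that ties NIK to the TRAF2 and cIAP complex. It had signals of 1253 on the RCCS array, against 995 on the control array, a log2 ratio of 0.15, within the half-width of 0.40. Traf5, on chromosome 1, encodes a close relative of TRAF2 with overlapping roles. It had signals of 448 on the RCCS array, against 286 on the control array, a log2 ratio of 0.46 (1.38-fold higher). Traf2 and Traf5 thus lay on opposite sides of 0, both beyond the software half-width and both under 2-fold. Each came inside that half-width under some settings, Traf2 at -0.30 on the spike-in probes and Traf5 at 0.39 and 0.37 with the normexp settings.

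The cIAP genes Birc2 and Birc3, paralogues that lie side by side on chromosome 9, also differed. Birc2, which encodes cIAP1, had signals of 744 on the RCCS array, against 615 on the control array, a log2 ratio of 0.09 and within the half-width of 0.40. Birc3, which encodes the NF-kappaB-inducible cIAP2, had 2 probes 7229 bases apart. Probe A_51_P449171 had a signal of 3370 on the RCCS array, against 7022 on the control array. Probe A_52_P434055 had 91.4 on the RCCS array, against 195 on the control array. Their log2 ratios were -1.24 and -1.28, 0.03 apart, and the gene was 2.40-fold lower at a log2 ratio of -1.26. The probes lay further apart at -1.23 and -0.86 with normexp, and at -1.07 and -1.29 with quantile normalization. The gene's ratio came to -0.95, under 2-fold, when the arrays were scaled on the spike-in probes, and also with normexp and quantile normalization. Whether either probe also binds the paralogue was not tested.

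**Figure D3:**
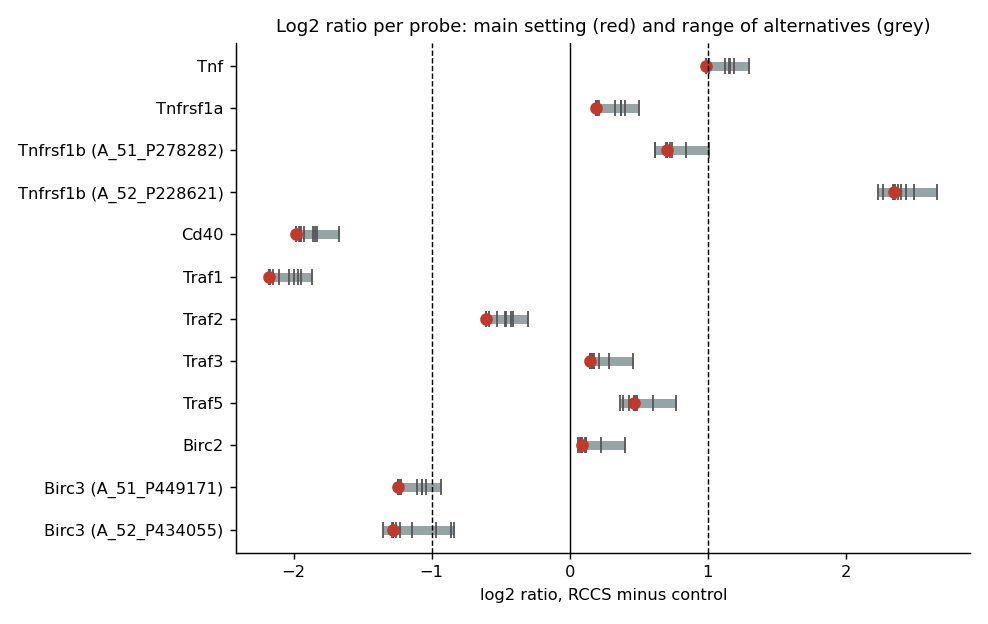
Log2 ratio (RCCS minus control) of each member probe at the main setting (red point) and under 11 alternative scalings, filters and background corrections (ticks, with the grey bar from lowest to highest); dashed lines mark 2-fold. Each probe stays on its side of 0, Tnf crosses the upper dashed line under most of the scalings, and both Birc3 probes come inside the lower dashed line under some. All alternatives reuse the same 2 arrays.

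The rest of the pathway was set beside these genes in 8 lists by role, holding 124 distinct genes, of which 106 were measured on both arrays. Of these, 11 passed 2-fold upward and 8 downward, together 17.9%, against 7.65% of all measured genes. The TNF and NF-kappaB target genes gave 10 of these 19, while the adaptor and kinase list and the death branch list gave 0. The lists were chosen with earlier results of these data known, so their share past 2-fold is a description and no evidence about the pathway. The lists share 9 genes, and no test of a list was made. Scaling on the spike-in probes adds 0.31 to every log2 ratio, which puts the medians of 3 lists that lie between -0.09 and -0.02 above 0. At that scaling 15 of 106 list genes passed 2-fold upward and 4 downward, against 1201 and 261 of all 16023 genes. With normexp and quantile normalization 9 and 4 passed, against 415 and 248 of all genes.

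Among the other TNF family ligands, 8 of 16 were measured on both arrays, with 1 past 2-fold in each direction and a median log2 ratio of 0.09. This median turned to -0.02 with normexp and to -0.09 without the filter on dim probes. With signals of at least 100 on the brighter array it was 0.43. Tnfsf13, which encodes APRIL, a survival factor for B cells and plasma cells, was 7.46-fold higher (signal 3728 on the RCCS array, against 439 on the control array). Ltb, which encodes the membrane anchor of the lymphotoxin heterotrimer, was 2.14-fold lower (1050 on the RCCS array, against 1975 on the control array), and came under 2-fold with 3 alternatives (-0.99 to -0.79). Tnfsf10, which encodes the death ligand TRAIL and is an interferon-induced gene, was well above background on the control array only (signal 4.48 on the RCCS array, against 73.8 on the control array, at least 3.96-fold lower). Tnfsf9 (0.01) and Tnfsf15 (0.17) lay on either side of the list's median, and Tnfsf11, which encodes RANKL, failed the background test on both arrays.

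Among the other receptors of the family, 19 of 23 were measured, again with 1 past 2-fold in each direction and a median of 0.09. On the spike-in probes 3 passed upward and 0 downward, and with either normexp setting 0 passed, while the median turned to -0.04 with normexp and to -0.01 without the filter on dim probes. Tnfrsf9, which encodes the costimulatory receptor 4-1BB, was at 1.50, but its signals were dim (158 on the RCCS array, against 49.2 on the control array), and it came to 0.65 under normexp background correction. Tnfrsf19 was at -1.22 and dimmer still (27.1 on the RCCS array, against 55.6 on the control array), and came to -0.53 with normexp and quantile normalization. Tnfrsf18 lay nearest the median at 0.09. Tnfrsf11a, which encodes RANK, was at -0.49.

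Among the adaptors and kinases of the receptor complex all 17 were measured and none reached 2-fold, except on the spike-in probes, where 2 passed upward. The median log2 ratio was -0.02, the value of the kinase gene Map3k7 (TAK1). Tradd, the death domain adaptor of TNF receptor 1, was at -0.05, Traf6, the main adaptor of RANK, at 0.02 and Map3k14, which encodes NIK, at -0.07. Traf4 was lowest at -0.96. Of the 16 ubiquitin enzymes and brakes, Trafd1, an interferon-inducible inhibitor of TRAF6-dependent signalling, was 2.77-fold lower (1861 on the RCCS array, against 4192 on the control array), and none was 2-fold higher. Traip, which encodes a TRAF-interacting ubiquitin ligase, was 2.24-fold lower (1533 on the RCCS array, against 3018 on the control array) but came to -0.85 on the spike-in probes. Tnip2, a partner of the brake A20 (0.01), and the ubiquitin-conjugating enzyme gene Ube2d3 (-0.10) lay on either side of their median of -0.04, and A20 itself (Tnfaip3) was at 0.12.

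No gene of the death branch of TNF receptor 1 reached 2-fold, with 11 measured and a median of -0.39, that of Casp8 (-0.26 relative to the median of all genes). This median came to -0.08 on the spike-in probes. The necroptosis effector gene Mlkl was at -0.82. Among 15 measured genes that control Tnf mRNA or its shedding, 2 passed 2-fold upward and none downward, with a median of -0.09. Rhbdf2, which encodes the carrier of the TNF-cleaving protease ADAM17, was 2.28-fold higher (3605 on the RCCS array, against 1390 on the control array) on both of its probes (1.18 and 1.20). Zc3h12a, which encodes a nuclease that degrades inflammatory mRNAs, was 2.07-fold higher (235 on the RCCS array, against 100.05 on the control array) but came to 0.68 under normexp background correction. Adam17 itself lay nearest the median at -0.09.

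The 10 measured NF-kappaB subunit and IkappaB genes had a median of -0.51 (-0.38 relative to that of all genes). This median came to -0.25 with quantile normalization, -0.22 with loess, -0.20 on the spike-in probes and -0.19 with normexp and quantile normalization. Nfkb2, which encodes the p100 precursor of the NIK-dependent branch, was 2.86-fold lower (1854 on the RCCS array, against 4661 on the control array), and its partner Relb was at -0.74. Nfkbiz, which encodes a nuclear IkappaB that drives a subset of late targets, was 5.29-fold higher (517 on the RCCS array, against 85.9 on the control array), a log2 ratio of 2.40 that came to 1.76 with either normexp setting. Nfkbia, the IkappaB that NF-kappaB itself induces (-0.57), and Nfkbib (-0.46) lay on either side of the median.

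The target genes of TNF and NF-kappaB split in both directions. With 19 measured, 6 passed 2-fold upward and 4 downward, against 3.88% and 3.76% of all measured genes. The median log2 ratio was -0.70, that of the mitochondrial superoxide dismutase gene Sod2 (-0.57 relative to the median of all genes). This median came to -0.39 on the spike-in probes and with quantile normalization, -0.35 with loess and -0.33 with normexp and quantile normalization. Nfkbia, Nfkbie, Relb, Bcl3 and Nfkb2 are also in the list of NF-kappaB subunits and IkappaB proteins. Higher were the inducible cyclooxygenase gene Ptgs2 (9.80-fold), the neutrophil attractant Cxcl2 (7.26-fold), the monocyte attractant Ccl2 (3.75-fold), the survival gene Bcl2l1 (2.47-fold), Tnfaip2 (2.30-fold) and Ier3 (2.06-fold). Lower were Ccl5 (13.3-fold), Cxcl10 (4.44-fold), Nfkb2 and Irf1 (2.17-fold). Irf1 came under 2-fold in 4 settings, with log2 ratios of -0.81 on the spike-in probes, -0.89 on its brightest probe and -0.98 both at the measured probes' 75th percentile and with normexp and quantile normalization. Ccl5, Cxcl10 and Irf1 are also known as interferon-induced genes. Ccl5 had the widest gap, with 7135 on the RCCS array, against 83471 on the control array, and Ptgs2 had 4397 on the RCCS array, against 395 on the control array. The cytokine gene Il6 had a dim signal of 59.1 on the RCCS array, and its 7.01 on the control array was not well above background, so that it was at least 2.15-fold higher. With Tnf near 2-fold higher and Traf1, Birc3 and Cd40 lower, the members that are themselves known NF-kappaB targets lay on both sides as well.

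**Figure D4:**
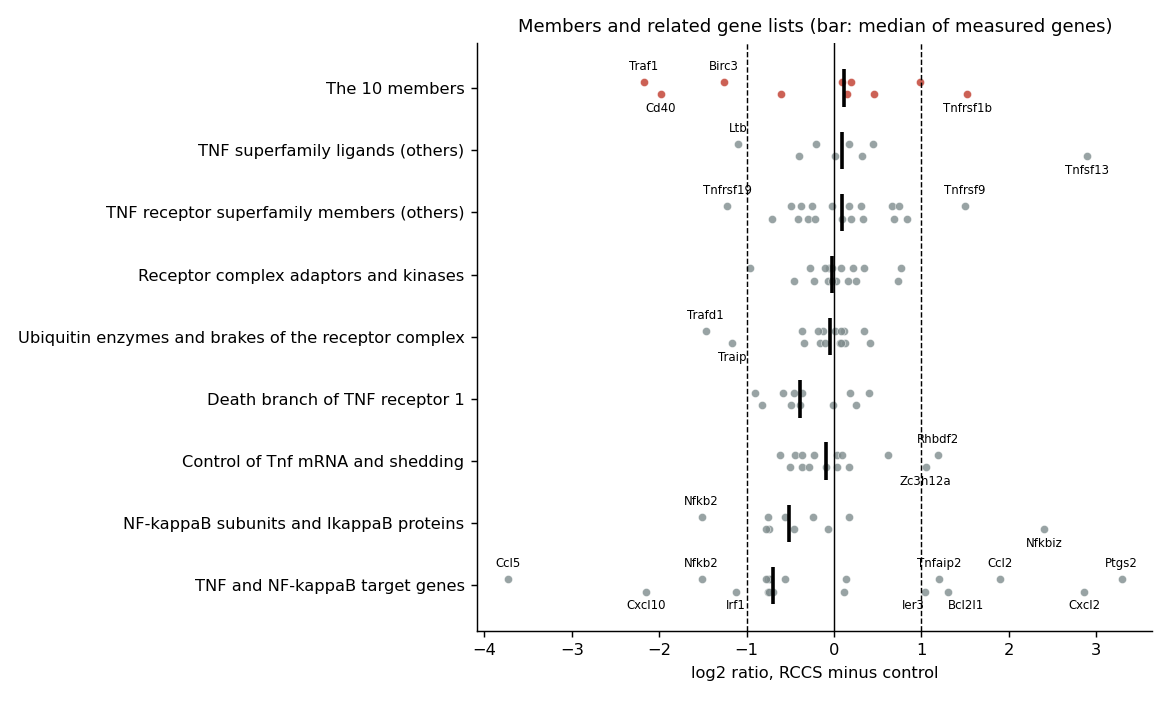
Log2 ratio (RCCS minus control) of each measured gene (points, offset up or down for legibility) in the 10 members (red) and 8 related lists (grey), with the median as a black bar and 2-fold as dashed lines. Genes at or past 2-fold are named; the target genes spread furthest, from Ccl5 at -3.73 to Ptgs2 at 3.29, while the adaptors and kinases stay within 2-fold at this scaling.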

How the data were processed

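Total RNA of 1 RCCS and 1 control culture was hybridised to 1 Agilent whole mouse genome array each. The deposited spot intensities were made with Agilent Feature Extraction 9.5.3.1, per the file headers, with background subtracted and surface trends removed but no scaling between arrays. The series' deposited value table holds a ratio of each signal to 1 constant per array (964 for RCCS and 849 for control, worked out from the values), with a floor of 0.01. That table was used as an alternative, and its centring and direction are not stated. The genome build of the probe positions is not stated, so no array coordinates are printed.

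Spots that the software called outliers on either array were left out, spots of 1 probe were averaged, and signals were scaled to the array's 75th percentile (966 and 849) and taken to log2. A probe counted as measured where at least 50% of its spots were well above background on both arrays, and a gene took the mean of its measured probes. For a probe above background on just 1 array a bound is given, its scaled signal there over whichever is higher on the other array, its own signal or the dimmest one well above background. No spot was saturated (0 spots). Normexp correction used limma 3.58.1 in R 4.3.3, and loess statsmodels 0.14.6. The percentile, median, quantile and loess scalings were tested on simulated bright probes, with equal numbers raised and lowered and 1 constant factor between arrays. That test did not cover the spike-in or normexp settings, dim probes or uneven shifts between arrays. Genes other than members took the RefSeq symbol of their accession (22951 of 41174 probes), else the name in the file.

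The members, lists, motifs and naming rule were chosen with earlier results of these data known. The rule names every member, and of each list the measured genes past 2-fold, the gene nearest the median and genes with a bound past 2-fold; Tnfrsf11a, Tnfsf11, Cd40lg, Tradd, Traf6, Map3k14, Traf4, Tnfaip3, Mlkl, Relb, Tnfsf15, Ube2d3 and Nfkbib, and the genes under other observations, were named after their values were seen. With 2 arrays a likeness of patterns between genes has no meaning. No protein sequences were compared.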

Additional observations from a re-analysis of the deposited data

How the results depend on the processing

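Every member gene kept its direction under all 12 alternatives of scaling, filter, background correction, source and choice of probe. These alternatives reuse the same 2 arrays, and the scalings moved the median of all genes by at most 0.31. A kept direction is thus no check on the cultures, least of all for members within the half-width of 0.40. Tnf ran from 0.99 to 1.29, Tnfrsf1a from 0.19 to 0.50, Cd40 from -1.98 to -1.67, Traf1 from -2.18 to -1.87, Traf2 from -0.61 to -0.30, Traf3 from 0.14 to 0.46, Traf5 from 0.37 to 0.77 and Birc2 from 0.06 to 0.40. The brightest probe in place of the mean put Tnfrsf1b at 2.35. Birc3 came to -0.95 on the spike-in probes and -0.95 with normexp and quantile normalization, which left 2 members at least 2-fold lower in place of 3. Members at least 2-fold higher numbered 2 in place of 1, through Tnf, with scaling at the median, by measured probes' 75th percentile or on spike-in probes, and with quantile, loess or normexp and quantile normalization. At 1.5-fold the members higher were also 2, and at 3-fold 0 were higher and 2 passed in either direction. List genes at least 2-fold lower were 4 in place of 8 on the spike-in probes (15 higher) and with normexp and quantile normalization (9 higher, in place of 11); at 1.5-fold 18 list genes were higher and 19 lower (37 in all), and at 3-fold 5 higher and 2 lower (7 in all). Of all calls 50.8% were higher at the main setting, 66.7% at the 75th percentile of measured probes, 82.1% on the spike-in probes, 63.5% with loess and 62.6% with normexp and quantile normalization. These settings moved the median of all genes by 0.14, 0.31, 0.13 and 0.10, and dropping the filter on dim probes by -0.12. All-gene counts of 622 higher and 603 lower became 1201 and 261 on the spike-in probes and 364 and 346 with normexp. They became 415 and 248 with normexp and quantile normalization, and 1607 and 1804 without the filter. No paired analysis was possible because each condition had 1 array, which also limits the precision of every value. In the 100 bases before the start, 1 of 9 members held the NF-kappaB form and 1 of 9 the interferon form, in place of 2 each. Of all 32851 promoter entries, 2.21% held the NF-kappaB form there and 2.53% the interferon form.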

Other observations

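The mouse receptor genes Tnfrsf22, Tnfrsf23 and Tnfrsf26, close relatives of each other, had log2 ratios of 0.67, 0.74 and 0.83, each under 2-fold. Their signals were 1850, 1833 and 2557 on the RCCS array and 1025, 966 and 1265 on the control array. Probes of such relatives may bind one another's RNA, which was not tested.

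Other genes of the pathway also had probes that disagreed. The 5 probes of Cflar, which encodes the caspase-8 inhibitor c-FLIP, ran from -0.35 to 0.95, and the 3 measured probes (of 4) of Ikbkg, which encodes the NEMO subunit of the IkappaB kinase, from 0.44 to 1.28. The 3 probes of Cyld, a deubiquitinase of the receptor complex, ran from -0.59 to 0.68.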
